A study of Mus musculus with 4 samples.

Results

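The perineuronal net is a lattice of extracellular matrix that wraps the cell body and proximal dendrites of some neurons, in cortex above all the parvalbumin interneurons. Its backbone is hyaluronan, which hyaluronan synthases spin out at the cell membrane. Proteoglycans of the lectican family bind hyaluronan, link proteins lock that bond, and tenascin-R ties the lecticans to one another. Chondroitin sulphate chains on the lecticans are built and sulphated in the Golgi, and secreted or membrane-bound proteases of the ADAMTS and MMP families cut the net, held back by the TIMP inhibitors. In cortex the net forms late in postnatal life and is known for limiting plasticity in the adult.

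Transcripts of 34 such genes were followed in the prelimbic cortex, a part of the medial prefrontal cortex. The genes were taken by symbol: a gene was read where a probe set carried its symbol and no other, and where several did, at the one brightest on average. Of the 34 genes, 33 had such a probe set, out of 18193 genes in all, and Mmp15 was not analysed here. They were sorted into 6 groups by role: core proteins and tenascins, link proteins, hyaluronan synthases with the hyaluronan receptor, chondroitin sulphate synthesis enzymes, proteases and protease inhibitors.

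The tissue was punched from male mice on postnatal day 90 and measured on Affymetrix 3' expression arrays. Fluoxetine blocks the reuptake of serotonin. Of the 4 arrays, 2 held RNA of males exposed to fluoxetine in utero and 2 held RNA of untreated males. The series describes the arrays of a group as biological duplicates. Strain, dose and days of exposure, the number of mice behind an array and the litters they came from are not given in the sources used here. If litters or mice were shared within a group, the p-values below measure a spread that is partly technical.

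The 2 fluoxetine arrays had median log2 intensities of 6.44 and 6.47 and the untreated arrays 6.50 and 6.48 over all probe sets. With so few arrays precision is low. For a single gene, permuting 2 arrays against 2 exactly and two-sided gives 0.333 at best, so that calls came from a limma fit across all 18193 genes. In that fit 0 genes had an adjusted p below 0.05 and 1266 had an unadjusted p below 0.05, of which 628 were higher and 638 lower with fluoxetine (562 and 1140 after another quantile normalization). Values below are log2 intensities per probe set. A difference is the fluoxetine mean minus the untreated mean on that log2 scale, with the standard error (SE) or the 95% interval of the fit.

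Most matrix genes differed between fluoxetine-exposed and untreated cortex by no more than the error of 2 arrays a group. Among the 33, only Timp3, which encodes a matrix-bound inhibitor of metalloproteases, had an unadjusted p below 0.05, and it was higher with fluoxetine. That is 1 of 33 genes higher, or 3.03%, and 0 of 33 lower, against 3.45% of all genes called higher, 3.51% called lower and 6.96% in either direction. No matrix gene passed the correction over all genes (0 of 33 at an adjusted p below 0.05, lowest adjusted p = 0.706 in limma, against 0% of all genes). The 33 differences ran from −0.26 for Tnc to 0.22 for Mmp14, with a median of 0.03 against −0.02 over all genes, and 19 were positive and 14 negative. The fluoxetine readings both exceeded the untreated ones for 6 genes (18.2%, against 15.5% of all genes) and both fell short of them for 3 genes (9.09%, against 22.3% of all genes). For the other 24 genes the groups overlapped. In bulk tissue fewer cells of a type and less RNA per cell cannot be told apart.

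**Figure D1:**
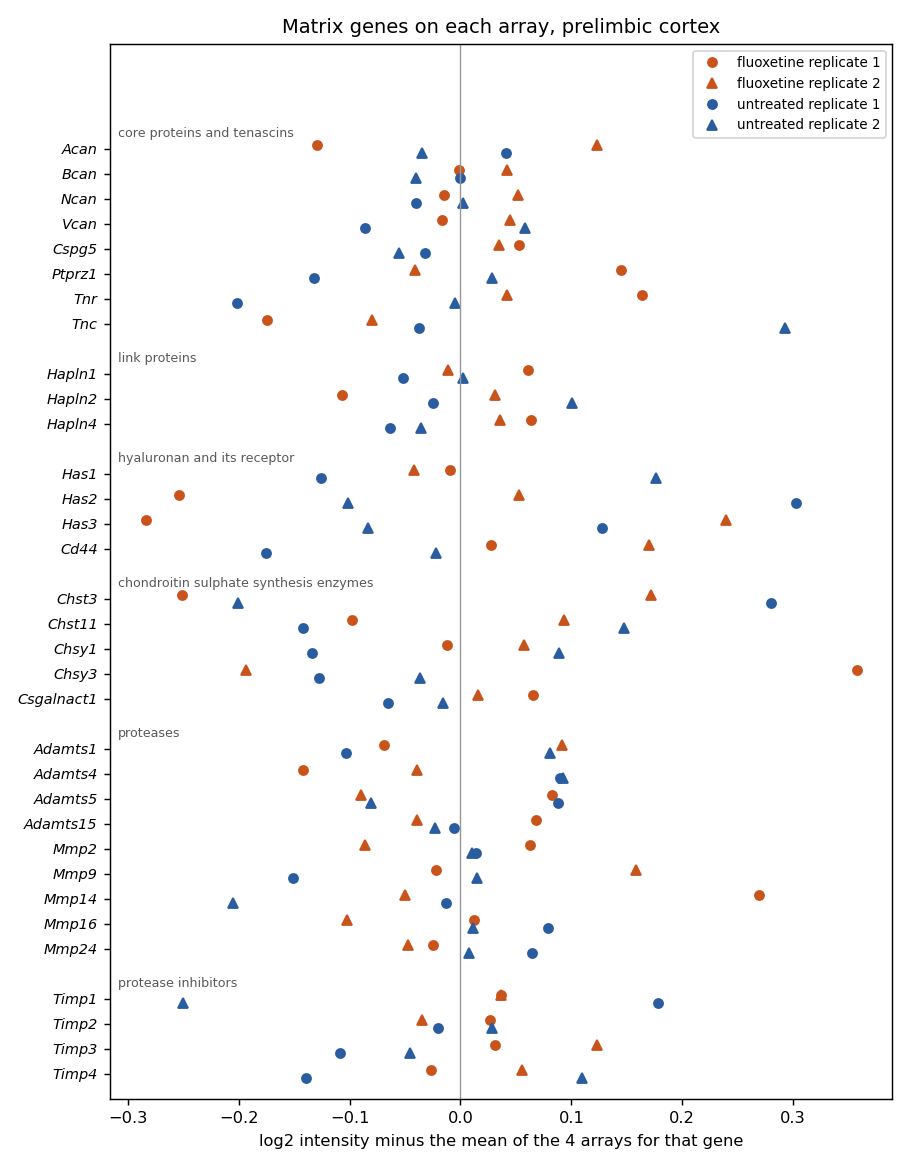
Log2 intensity of each of 33 matrix genes on each array, minus that gene's mean over the 4 arrays (horizontal axis), with genes listed by role down the page. Orange symbols are fluoxetine arrays and blue symbols untreated arrays, circles replicate 1 and triangles replicate 2. The colours intermix for 24 genes and separate for 9, of which Tnr, Cspg5, Hapln4, Cd44, Csgalnact1 and Timp3 have both orange symbols to the right.

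The plot of each gene on each array shows how the arrays lined up. Untreated replicate 1 was the lowest of the 4 arrays for 15 of the 33 genes, and untreated replicate 2 was the lowest for 4. Relative to each gene's own mean, the median of the 33 genes was −0.0011 and 0.04 on the fluoxetine arrays and −0.04 and 0.0023 on the untreated arrays. Leaving out untreated replicate 2 moved the median difference of the genes to 0.08, and leaving out fluoxetine replicate 1 to 0.06.

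**Figure D2:**
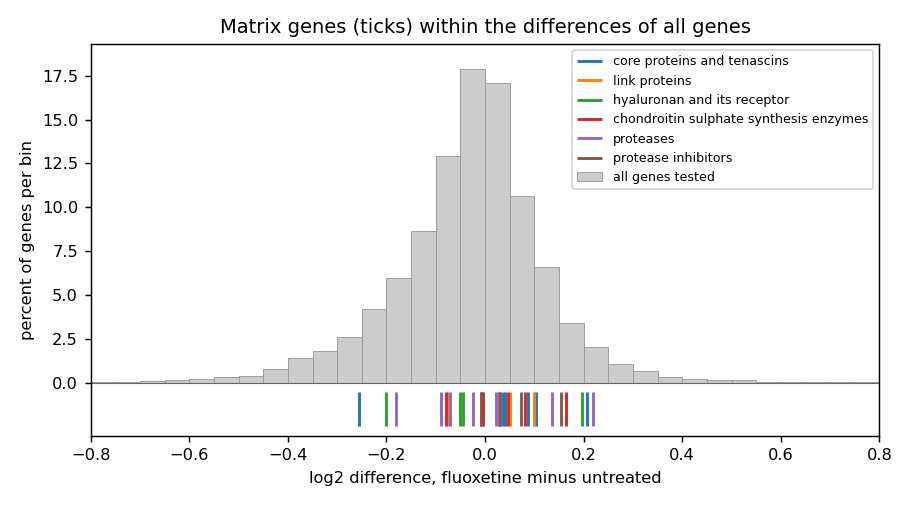
Distribution of the log2 difference, fluoxetine minus untreated, over all 18193 genes (grey bars, percent of genes per bin of 0.05, with 23 genes beyond the axis), with 1 tick below the axis for each matrix gene, coloured by role. Of the 33 ticks, 30 fall between −0.31 and 0.20, the 5th and 95th percentiles of all genes.

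Set in the distribution of all genes, 19 of the 33 differences lay between the quartiles of −0.11 and 0.05. The 3 differences outside the 5th to 95th percentiles were those of Mmp14, Tnr and Cd44, all on the upper side.

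The core proteins are the chondroitin sulphate proteoglycans that give the net its mass, with the tenascins that bind them. At an unadjusted p below 0.05, 0 of the 8 were higher and 0 were lower, and the median difference was 0.04. Aggrecan, encoded by Acan, is the lectican that defines the net in most staining work. Acan (probe set 1449827_at) read 5.41 and 5.66 on the fluoxetine arrays, against 5.58 and 5.50 on the untreated arrays. The 2 fluoxetine readings lay on either side of both untreated ones, and the difference was −0.01 with a 95% interval of −0.35 to 0.34. The Acan probe set is dim, below 7.87, the median level of all genes.

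Brevican and neurocan, encoded by Bcan and Ncan, are the lecticans most abundant in adult and in developing brain. Bcan read 11.78 and 11.82 with fluoxetine, against 11.78 and 11.74 without, a difference of 0.04 with an interval of −0.06 to 0.14. Ncan read 11.12 and 11.19 with fluoxetine, against 11.10 and 11.14 without, a difference of 0.04 with an interval of −0.08 to 0.15. Both genes had bright probe sets with closely spaced readings and overlapping groups, and their intervals are the narrowest among the 4 lecticans. The other 2 probe sets of Ncan differed by −0.11 and 0.17, in opposite directions. In the first of these the fluoxetine readings were wholly below the untreated ones. The other probe set of Bcan differed by 0.02 with an interval of −0.16 to 0.20 and overlap.

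Vcan, for versican, the lectican of immature and loose matrix, had 8 probe sets that ranged from −0.42 to 0.78. Its brightest differed by 0.03 (SE 0.10). Both extremes came from probe sets near the lowest values of the table. Cspg5, for neuroglycan C, a transmembrane proteoglycan, read 11.66 and 11.64 with fluoxetine, against 11.57 and 11.55 without. Both fluoxetine arrays were above both untreated arrays, by 0.09 on average (unadjusted p = 0.077 in limma).

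Ptprz1 encodes a receptor phosphatase whose extracellular part, released as phosphacan, is a proteoglycan that binds tenascin-R. All 3 of its probe sets gave positive differences, of 0.10, 0.11 and 0.18. The brightest read 10.20 and 10.02 with fluoxetine, against 9.93 and 10.09 without, and its groups overlapped. The dimmest of the 3 read 9.54 and 9.51 with fluoxetine, against 9.30 and 9.40 without, with no overlap and an unadjusted p of 0.032 in a limma fit over all probe sets.

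Tnr encodes tenascin-R, the cross-linker of lecticans. It read 9.20 and 9.08 on the fluoxetine arrays, against 8.84 and 9.03 on the untreated arrays. Both fluoxetine readings were above both untreated ones, but fluoxetine replicate 2 and untreated replicate 2 were only a small step apart. The difference was 0.21 (1.15-fold, SE 0.09, unadjusted p = 0.0513 in limma), just outside the threshold. It was 0.30 without untreated replicate 2 and 0.11 without untreated replicate 1, so that its size rested on the low reading of untreated replicate 1. It was 0.15 without fluoxetine replicate 1 and 0.27 without fluoxetine replicate 2. Tnr passed the threshold after another quantile normalization (0.17, limma unadjusted p = 0.0400) and after subtracting array medians (0.20, limma unadjusted p = 0.0426). It has 1 probe set, so that refits on other genes or probe sets, or without the intensity trend, changed only its SE. In these the limma unadjusted p was 0.0442 on genes above the median level and 0.0389 on means of probe sets. It was 0.0531 on all probe sets together, 0.0603 on the most variable ones and 0.103 without the intensity trend.

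Tnc encodes tenascin-C, a matrix protein of development and injury. It read 5.70 and 5.79 with fluoxetine, against 5.83 and 6.16 without. Untreated replicate 2 stood above the other 3 arrays, and the difference of −0.26 (SE 0.15, limma unadjusted p = 0.136) became −0.09 without that array and −0.42 without untreated replicate 1 (limma unadjusted p = 0.0311). Its other probe set, near the lowest values of the table, differed by −0.25. Untreated replicate 2 was also high in markers of striatal neurons. Their summed intensity on a log2 scale was 12.77 and 13.07 with fluoxetine, against 12.86 and 13.88 without. Of the 11 markers 0 were higher and 1 was lower at an unadjusted p below 0.05, where 3.45% and 3.51% of all genes were. The differences were negative for all 11, from −0.96 to −0.19, with a median of −0.47. The part of striatal neurons in the Tnc value was not tested.

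The link proteins bind hyaluronan and a lectican at once and so hold the net together. At an unadjusted p below 0.05, 0 of the 3 were higher and 0 were lower, with a median difference of 0.05. Hapln1, for the link protein that is essential for a compact net, read 7.84 and 7.76 with fluoxetine, against 7.72 and 7.78 without. The groups overlapped, with a difference of 0.05 and an interval of −0.16 to 0.26. All 4 of its probe sets gave small positive differences, between 0.01 and 0.12.

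Hapln4, for Bral2, a link protein that binds brevican in nets, read 9.89 and 9.86 with fluoxetine, against 9.76 and 9.79 without. The readings of a group lay close together and the groups did not overlap. The difference of 0.10 (SE 0.06) had an unadjusted p of 0.116 in limma. Hapln2, for Bral1, the link protein of the nodes of Ranvier, is made by oligodendrocytes. It read 7.75 and 7.89 with fluoxetine, against 7.84 and 7.96 without, with overlap. Its second probe set read 7.03 and 7.03 with fluoxetine, against 7.20 and 7.47 without, a difference of −0.30 (limma unadjusted p = 0.0378 in the fit over all probe sets).

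Hapln2 stood beside the markers of its cell type. Of 14 oligodendrocyte and myelin markers, at an unadjusted p below 0.05 there were 0 higher and 5 lower, with a median of −0.14. Of all genes, 3.45% were called higher and 3.51% lower. The 14 differences were positive for 1 marker and negative for 13. For 6 markers both fluoxetine arrays were below both untreated arrays, where 22.3% of all genes were. The summed marker intensity on a log2 scale was 15.68 and 15.69 on the fluoxetine arrays and 15.68 and 15.86 on the untreated arrays. Untreated replicate 2 was the high array there and the highest for both probe sets of Hapln2. The part of these cells in the Hapln2 values was not tested.

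Hyaluronan is made by 3 synthases, and Cd44 is its main cell-surface receptor. At an unadjusted p below 0.05, 0 of these 4 genes were higher and 0 lower, with a median difference of −0.05. Has2 read 3.04 and 3.34 with fluoxetine, against 3.59 and 3.19 without. All 4 readings were near the low end of the table, the groups overlapped, and the interval of the difference ran from −0.69 to 0.29, the widest among the matrix genes. Has1 and Has3 differed by −0.05 and −0.04, also below the median level.

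Cd44 read 6.27 and 6.42 with fluoxetine, against 6.07 and 6.22 without. Both fluoxetine arrays were above both untreated ones, by 0.20 (SE 0.13, limma unadjusted p = 0.163), with the nearest readings of the groups 6.27 and 6.22. Its next probe set gave 0.13 and a dimmer one −0.20, so that the probe sets did not share a direction.

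The enzymes of chondroitin sulphate synthesis set the length and the sulphation of the chains. At an unadjusted p below 0.05, 0 of the 5 were higher and 0 were lower, and the median difference was 0.05. Csgalnact1, which starts the chain by adding the first N-acetylgalactosamine, read 9.16 and 9.11 with fluoxetine, against 9.03 and 9.08 without. The groups did not overlap, and the difference was 0.08 (SE 0.07). Its second probe set gave 0.18, again without overlap (limma unadjusted p = 0.101 in the fit over all probe sets).

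Chsy3, a chondroitin synthase that extends the chain, read 7.36 and 6.81 with fluoxetine, against 6.87 and 6.96 without. One array, fluoxetine replicate 1, was high, and fluoxetine replicate 2 was the lowest of the 4. The difference of 0.16 became −0.11 without fluoxetine replicate 1 and 0.44 without fluoxetine replicate 2 (limma unadjusted p = 0.0254). Chsy1, another chondroitin synthase, differed by 0.05 (SE 0.09).

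The sulphotransferases make the sulphation patterns that are known to shift as nets mature: Chst11 makes the form that prevails in adult brain and Chst3 the form that is more common in young brain. Chst11 differed by −0.01 with an interval of −0.26 to 0.25. Chst3 differed by −0.08 with an interval of −0.55 to 0.39. It read 6.32 and 6.75 with fluoxetine, against 6.86 and 6.38 without, with replicates far apart in both groups and overlap between the groups.

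The proteases that cut lecticans and other matrix proteins had a median difference of −0.0076 over 9 genes, none of them past an unadjusted p of 0.05. Adamts4, an aggrecanase that also cuts brevican, read 7.79 and 7.89 with fluoxetine, against 8.02 and 8.02 without. The 2 untreated readings were almost identical and above both fluoxetine readings. The difference was −0.18 (SE 0.09, limma unadjusted p = 0.0706), and −0.20 after another quantile normalization (limma unadjusted p = 0.0404). Its second probe set read 7.48 and 7.63 with fluoxetine, against 7.33 and 7.77 without, and differed by 0.01. Among other aggrecanases, Adamts1, Adamts5 and Adamts15 differed by 0.02, −0.01 and 0.03, all below the median level and with overlap. Adamts5 turned on the probe set: a pair of others gave −0.26 and −0.30, both with the fluoxetine readings wholly below the untreated ones (limma unadjusted p = 0.121 and 0.139 in the fit over all probe sets). The mean of its probe sets gave −0.13.

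Mmp9, a secreted gelatinase known for cutting nets during plasticity, read 5.49 and 5.67 with fluoxetine, against 5.36 and 5.53 without. The groups overlapped on this dim probe set, with a difference of 0.14 and an interval of −0.20 to 0.47, and the other probe set gave −0.02. Mmp2, the second gelatinase, differed by −0.02 with an interval of −0.30 to 0.25.

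Mmp14, a membrane-anchored protease that activates Mmp2, had the largest positive difference of the 33 genes, 0.22 (SE 0.14, limma unadjusted p = 0.162). It read 7.22 and 6.91 with fluoxetine, against 6.94 and 6.75 without. Fluoxetine replicate 1 was alone at the top and fluoxetine replicate 2 lay among the untreated readings. The other 2 probe sets gave −0.01 and −0.32. The larger of these was lower with fluoxetine at a limma unadjusted p of 0.0486 in the fit over all probe sets, so that no direction can be given for Mmp14.

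The membrane-type proteases Mmp16 and Mmp24, both made in brain, differed by −0.09 and −0.07 at their brightest probe sets. For Mmp24 all 3 probe sets gave small negative differences. For Mmp16 the brightest probe set went against the other 3, which gave 0.35, 0.51 and 0.56. The first of these read 8.45 and 8.08 with fluoxetine, against 8.07 and 7.76 without. In all 3 the groups stood apart, but the nearest readings of the first were 8.08 and 8.07, and fluoxetine replicate 1 was the highest array throughout.

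The tissue inhibitors of metalloproteases bind and block MMPs and some ADAMTS enzymes. At an unadjusted p below 0.05, 1 of the 4 was higher and 0 were lower, with a median difference of 0.05. Timp3, the member that stays bound to matrix and blocks aggrecanases, read 9.92 and 10.01 with fluoxetine, against 9.78 and 9.84 without (probe set 1449335_at). Both fluoxetine arrays were above both untreated ones. The means were 9.96 ± 0.07 with fluoxetine and 9.81 ± 0.04 without (SD, n = 2 each), a difference of 0.15 (1.11-fold, 95% interval 0.01 to 0.30, limma unadjusted p = 0.0408, adjusted p = 0.706).

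On all 4 Timp3 probe sets the fluoxetine readings stood above the untreated ones, with differences of 0.09 to 0.50. The probe set with the largest difference, 1419088_at, read 7.97 and 8.04 with fluoxetine, against 7.37 and 7.63 without (unadjusted p = 0.00245, adjusted p = 0.353 in the fit over all probe sets). Probe sets of a gene read the same 4 RNA samples and are repeated readings, not replicates. The call ended without fluoxetine replicate 1 (0.20, limma unadjusted p = 0.0598), fluoxetine replicate 2 (0.11, limma unadjusted p = 0.264) or untreated replicate 1 (0.12, limma unadjusted p = 0.128), after another quantile normalization (0.11, limma unadjusted p = 0.0906) and without the intensity trend (limma unadjusted p = 0.0971). The difference was positive under all 11 alternatives. With the groups apart on all 4 probe sets, leaving out an array or changing the probe set could not turn it negative.

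Timp2, an abundant inhibitor in brain and a cofactor for Mmp2 activation, turned on the probe set. Its brightest, 1454677_at, read 12.01 and 11.95 with fluoxetine, against 11.96 and 12.01 without, a difference of −0.01 with an interval of −0.11 to 0.10. The next 4 by level gave positive differences, of 0.18, 0.11, 0.26 and 0.43. The last of these read 9.12 and 8.90 with fluoxetine, against 8.51 and 8.65 without, with no overlap (unadjusted p = 0.00267, adjusted p = 0.353 in the fit over all probe sets). With the mean of all probe sets Timp2 differed by 0.15 (limma unadjusted p = 0.0380). Timp2, Mmp16 and Ptprz1 are described at this length after their values were seen.

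**Figure D3:**
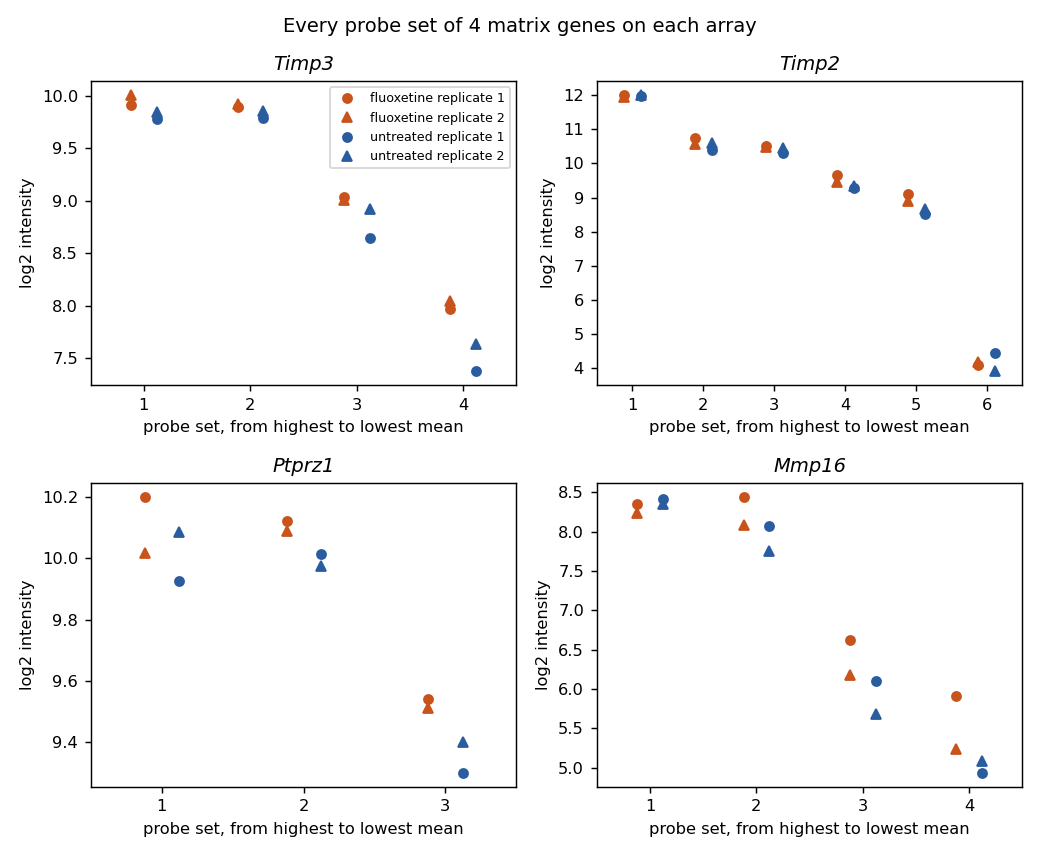
Log2 intensity (vertical axis) of every probe set of Timp3, Timp2, Ptprz1 and Mmp16 on each array, ordered from the highest to the lowest mean, with orange for fluoxetine, set left, and blue for untreated. For Timp3 the orange symbols are above the blue ones in all 4 probe sets, for Timp2 in 3 of 6, for Ptprz1 in 2 of 3 and for Mmp16 in 3 of 4.

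The plot of every probe set of these 4 genes shows that, within Timp3, the gaps were widest in the 2 dimmer probe sets. Timp1, the inducible inhibitor, read 6.04 and 6.04 with fluoxetine, against 6.19 and 5.76 without. The untreated arrays lay on either side of both fluoxetine arrays. Timp4, the inhibitor best known from heart and brain, differed by 0.03 (SE 0.09), with 0.02 at its other probe set.

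Timp3 and Timp2 are the 2 inhibitors with several probe sets higher at an unadjusted p below 0.05, and their promoters are shown for that reason. The sequences are the 250 bases before the RefSeq start (GRCm38.p6), written 5′ to 3′ on the strand of the gene, with the GC box, GGGCGG on either strand, in capitals. The Timp3 promoter is chr10:86300162-86300411 on the plus strand and the Timp2 promoter chr11:118355412-118355661 on the minus strand.
Timp3: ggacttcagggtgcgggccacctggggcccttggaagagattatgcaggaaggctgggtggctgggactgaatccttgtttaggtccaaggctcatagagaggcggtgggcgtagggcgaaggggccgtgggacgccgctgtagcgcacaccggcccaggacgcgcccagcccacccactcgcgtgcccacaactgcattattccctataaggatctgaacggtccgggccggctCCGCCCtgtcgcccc
Timp2: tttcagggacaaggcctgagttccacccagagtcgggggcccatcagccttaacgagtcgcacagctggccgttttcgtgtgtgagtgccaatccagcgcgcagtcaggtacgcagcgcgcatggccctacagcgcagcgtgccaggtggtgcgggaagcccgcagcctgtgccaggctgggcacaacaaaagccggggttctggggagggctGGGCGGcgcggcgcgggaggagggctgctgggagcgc
Both windows were rich in G and C, at 65.6% for Timp3 and 68.0% for Timp2, above 83.8% and 87.8% of the 32851 mouse promoters in the table. Each held 1 GC box, a motif present in 32.7% of all promoters of this length. Neither held the AP-1 motif TGANTCA, found in 6.75% of promoters, or TATAAA, found in 12.4%. A match of letters is a description only.

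**Figure D4:**
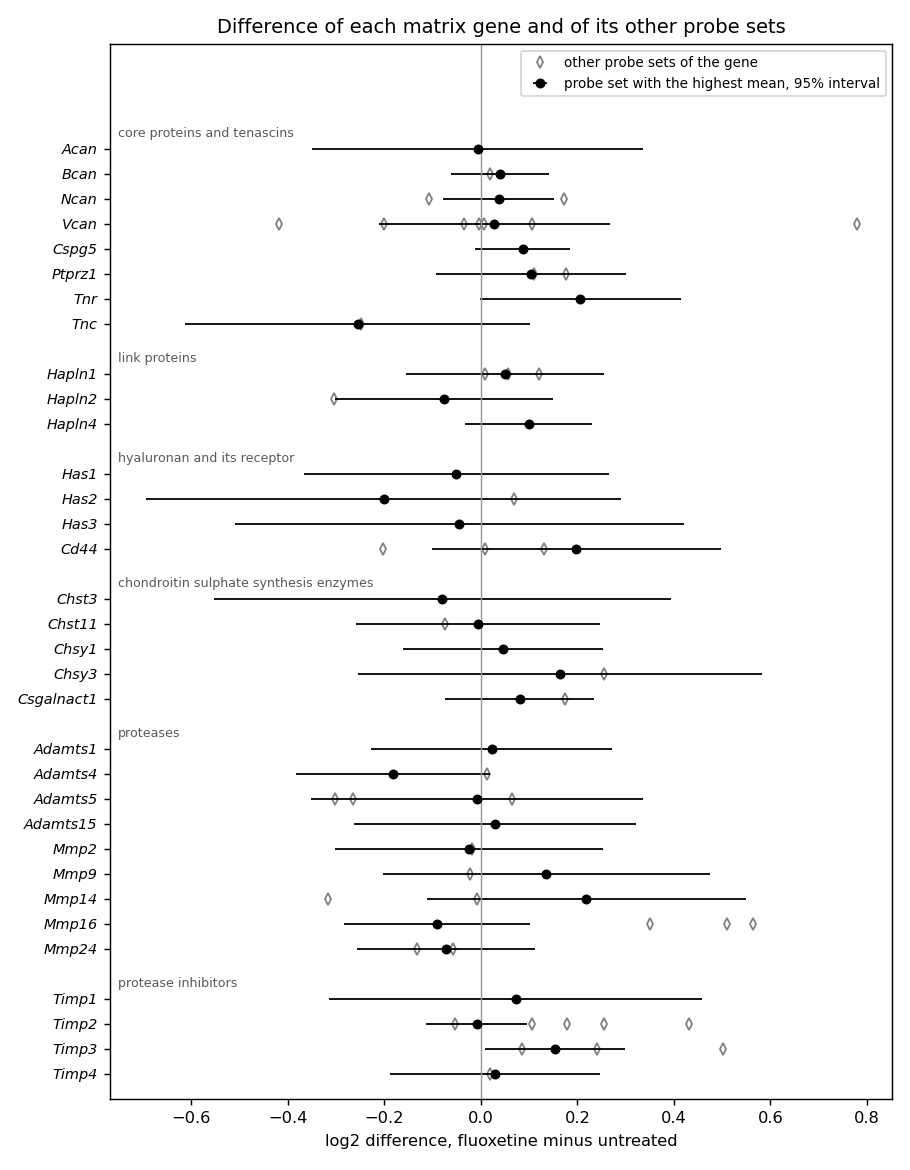
Log2 difference, fluoxetine minus untreated, of each matrix gene at its brightest probe set (black dots, bars the 95% interval of the limma fit) and at its other probe sets (open diamonds). The interval of Timp3 alone lies above 0. Some diamonds lie far from the black dot of their gene, among them diamonds of Vcan, Cd44, Mmp14, Mmp16, Timp2 and Timp3.

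Probe sets were compared across the whole list, as drawn in the plot of each gene's difference and its other probe sets. The 33 genes had 79 probe sets. In the fit over all probe sets, 9 of these passed an unadjusted p of 0.05 as higher and 3 as lower, or 11.4% and 3.8%, against 6.4% and 3.04% of all 34945 probe sets (9.45% in either direction). Brightest probe sets alone gave 3.26% higher and 3.4% lower over all genes in that fit. Dimmer probe sets of all genes were thus called higher more often. Of the 9, only 1, of Timp3, was the brightest of its gene. None of the 79 had an adjusted p below 0.05 in limma, against 0.00286% of all probe sets. Timp3 gave 3 of the 9, Timp2 and Mmp16 gave 2 each, and Ptprz1 and Vcan 1 each. Of the 79, 23 had fluoxetine readings wholly above the untreated ones (29.1%, against 19.9% of all probe sets) and 11 the reverse (13.9%, against 20% of all probe sets). Among the 22 genes with over 1 probe set, 7 had positive differences throughout, 5 had negative ones throughout and 10 had both signs. The number of matrix genes higher at an unadjusted p below 0.05 was 4 with the mean of a gene's probe sets (Tnr, Mmp16, Timp2 and Timp3) and 4 with the most variable one (Vcan, Mmp16, Timp2 and Timp3), in place of 1. The share of all genes called higher rose too, to 4.58% with the mean and 6.52% with the most variable probe set, from 3.45%.

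Of the 33 genes, 15 had a mean above 7.87, the median of all genes, and 18 were below it. Of the 15, 5 had fluoxetine readings wholly above the untreated ones and 2 the reverse, where 21.8% and 16.9% of all genes above that level did so. Of the 18 below it, 1 had each arrangement (5.56% each), where 9.13% and 27.8% of all genes at or below that level did so. Acan, Hapln1 and Mmp9 are among the 18.

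A second list held 71 further matrix genes, of which 65 were measured: other enzymes of chain synthesis, hyaluronidases, plasminogen activators, receptors of the net and general matrix proteins. Of these, at an unadjusted p below 0.05 there were 4 higher and 1 lower, or 6.15% and 1.54%, against 3.45% and 3.51% of all genes. Their median difference was −0.04. After another quantile normalization 4 were higher and 8 lower, where 3.09% and 6.27% of all genes were. After subtracting array medians there were 4 and 5, where 3.39% and 4.66% of all genes were.

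Plat, for tissue plasminogen activator, a serine protease that frees plasmin to cut matrix, had the smallest p of this list. It read 9.19 and 9.27 with fluoxetine, against 8.91 and 8.93 without. The groups stood well apart, by 0.31 (1.24-fold, SE 0.07, unadjusted p = 0.00224, adjusted p = 0.696 in limma). Its dimmer probe set differed by 0.04 with overlap. Dse, the epimerase that turns chondroitin into dermatan sulphate, read 5.39 and 5.12 with fluoxetine, against 4.27 and 4.68 without, a difference of 0.78 (SE 0.19) on a dim probe set.

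Dcn, for the small proteoglycan decorin, differed by 0.23 (SE 0.08) and Itgb1, for the integrin beta 1 chain, by 0.17 (SE 0.07). The next probe set of Itgb1 gave 0.13 and 4 much dimmer ones gave negative differences, down to −0.29. The other probe set of Dcn gave 0.03 with overlap. Dcn is also a meningeal marker. Of 11 meningeal fibroblast markers, Dcn among them, 2 were higher (Dcn and Col1a2) and 0 lower at an unadjusted p below 0.05. Of all genes, 3.45% were called higher and 3.51% lower. Of the 11 differences 8 were positive and 3 negative, the latter including Slc6a13 at −0.15 and Col1a1 at −0.12. The summed intensity of the list on a log2 scale was 14.48 and 14.53 with fluoxetine, against 14.30 and 14.47 without. This sum rested on Ptgds, which read 14.32 and 14.36 with fluoxetine, against 14.13 and 14.29 without. The part of these cells in the Dcn value was not tested. Nptx2, for a neuronal pentraxin that gathers at excitatory synapses on parvalbumin cells, was the 1 lower gene. It read 8.54 and 8.48 with fluoxetine, against 8.68 and 8.76 without, a difference of −0.21 (limma unadjusted p = 0.0268). Its dimmer probe set went the other way, with 5.91 and 5.95 with fluoxetine, against 5.52 and 5.68 without (difference 0.33, limma unadjusted p = 0.0396 in the fit over all probe sets), so that no direction can be given for Nptx2.

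**Figure D5:**
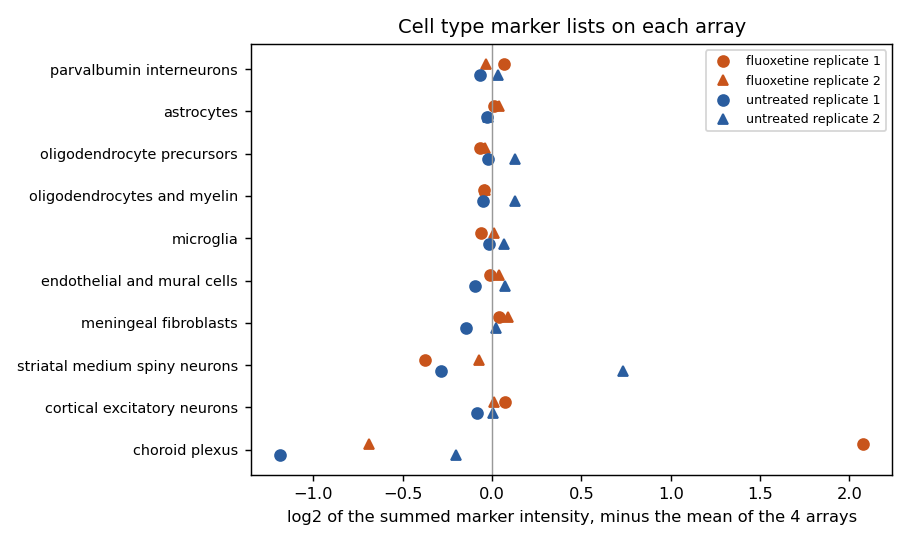
Log2 of the summed intensity of 10 cell type marker lists on each array, minus the mean of the 4 arrays (horizontal axis), with orange for fluoxetine and blue for untreated. Untreated replicate 2 stands out for striatal markers, at 13.88 against 12.77 to 13.07 elsewhere, and fluoxetine replicate 1 for choroid plexus, at 11.82 against 8.56 to 9.55 elsewhere.

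Markers of the cells that make the net and its enzymes were read on the same arrays, as shown in the plot of the marker lists. For 12 markers of parvalbumin interneurons, 0 passed an unadjusted p of 0.05 in either direction. Their summed intensity was 15.11 and 15.01 with fluoxetine, against 14.98 and 15.07 without. A sum weighs its brightest markers most, here Cplx1 and Gad1, at 13.73 and 12.96 on fluoxetine replicate 1, so that it follows Pvalb little. The Erbb4 probe set was near the lowest values of the table. Pvalb itself read 11.17 and 10.25 with fluoxetine, against 10.25 and 10.36 without, with fluoxetine replicate 1 apart from the rest. Astrocytes make brevican and phosphacan. Of 12 astrocyte markers 3 were higher and 1 lower at that threshold, with sums of 15.73 and 15.76 with fluoxetine, against 15.69 and 15.70 without. Of all genes, 3.45% were called higher and 3.51% lower. Both fluoxetine arrays were above both untreated ones for 6 of the 12 and below them for 1, against 15.5% and 22.3% of all genes. The 12 differences were positive for 10 markers and negative for 2. The largest was Gjb6, a gap junction gene, at 0.30 (SE 0.05), followed by Slc1a3, a glutamate transporter gene, at 0.21 (SE 0.06). The 1 lower was Atp1b2, at −0.15 (SE 0.04), and the median of the list was 0.03.

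Precursors of oligodendrocytes also make phosphacan, and their lineage makes tenascin-R. Of 9 of their markers 0 passed an unadjusted p of 0.05 in either direction, with sums of 12.45 and 12.48 with fluoxetine, against 12.49 and 12.64 without. The 9 differences were positive for 1 marker and negative for 8. The sums of the endothelial and mural list were 13.28 and 13.33 with fluoxetine, against 13.20 and 13.37 without, with 0 of 14 higher and 0 lower. Those of 9 microglial markers were 13.24 and 13.31 with fluoxetine, against 13.28 and 13.37 without, with 0 higher and 0 lower. Markers of cortical excitatory neurons, the main cells of the labelled tissue, were present. Of these 9, 3 were higher (Fezf2, Neurod6 and Cux2) and 0 lower, where 3.45% and 3.51% of all genes were. The sums of this list were 13.39 and 13.33 with fluoxetine, against 13.24 and 13.33 without. The 9 differences were positive for 6 and negative for 3, the latter including Foxp2 at −0.16 and Emx1 at −0.12. Of 6 choroid plexus markers 0 were higher and 0 lower. The choroid plexus sum rested on Ttr, for transthyretin, which read 11.71 and 8.09 with fluoxetine, against 6.67 and 8.97 without. The parts of the choroid plexus, astrocyte, precursor and vascular cells in the Timp3, Tnr and Ptprz1 values were not tested. Poly-A control transcripts, which are not from the tissue, had a median difference of 0.24 over 24 probe sets. All 24 were higher with fluoxetine, and their part in the values above was not tested.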

How the data were processed

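RNA from 4 samples, 2 fluoxetine and 2 untreated, was read on Affymetrix arrays. The authors deposited log2 intensities of probe sets. The submitters' processing notes name RMA, affy and limma, without versions, roles or order, and do not give the background correction or the genome build. That the scale is log2 was read from the range of the deposited values. Of 45101 probe sets, 34945 had 1 gene symbol in the platform annotation, 932 had several and were not named, 9160 had none and 64 were array controls; 34741 matched the RefSeq table (GRCm38.p6) by Entrez number.

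Each gene was read at its probe set with the highest mean, with no filter on low values, and fitted with limma 3.58.1 in R 4.3.3 (lmFit, eBayes with an intensity trend, 2 residual and 5.15 prior degrees of freedom, two-sided, Benjamini-Hochberg over 18193 genes, threshold 0.05). Labels give no batch and no pairing. A second fit took all 34945 probe sets. Alternatives were the mean and the most variable probe set, genes above the median level, another quantile normalization, subtracted array medians, no trend, and each array left out. On simulated data for fluoxetine against untreated (18193 genes, 20 draws), an adjusted p below 0.05 called 75.1% of genes changed 1.5-fold and 97.7% of those changed 2-fold. The simulated noise was independent for each gene and array, with the spread estimated by this fit. It held no effect shared by the genes of an array, such as dissection or litter, so that these shares may be too high for the real arrays.

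Members, roles, the second list and the markers were chosen with earlier results of these data known. By rule, array values are given for members at an unadjusted p below 0.05, for the 2 largest absolute differences per role, and for Acan, Bcan, Ncan, Hapln1, Hapln4, Tnr and Mmp9; of the second list up to 4 genes per direction by p, and of each marker list up to 2 by absolute difference plus Pvalb. Other array values were added after they were seen. Promoters are from RefSeq; 50 bases after the start were left out.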

Additional observations from a re-analysis of the deposited data

How the results depend on the processing

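With 2 arrays a group, leaving out an array leaves 1, which is taken to vary like the other groups, and 1 residual degree of freedom. No paired analysis was possible because the replicate numbers only name arrays in accession order and no label pairs them. The count of all genes at an unadjusted p below 0.05 was 1266, 731 among genes above the median level alone, where fewer genes were tested, and 369 (without fluoxetine replicate 1) to 1716 with an array left out. The count at an adjusted p below 0.05 was 0, 1 with the most variable probe set, and 0 to 1 with an array left out. Matrix genes higher at an unadjusted p below 0.05 numbered 1, 4 with the mean or the most variable probe set, 2 above the median level or after subtracting array medians, 0 without the intensity trend, and 0 to 2 with an array left out. Those lower numbered 0, 1 with the most variable probe set (Hapln2) or another quantile normalization (Adamts4), and 0 to 1 with an array left out. The median difference of the matrix genes was 0.0191 to 0.0751 with an array left out. Of all genes, 3.45% were higher in the main fit, 4.58% with the mean and 6.52% with the most variable probe set. That share was 5.75% above the median level, 3.39% after subtracting array medians and 2.15% without the intensity trend. The share of all genes called lower was 3.51% in the main fit, 3.21% with the most variable probe set and 6.27% after another quantile normalization. The second list had 5 genes past the threshold, 3 with the mean of probe sets, 12 after another quantile normalization, 9 after subtracting array medians and 3 to 8 with an array left out.

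Of 345 recomputed differences of single genes, 38 changed sign, none of them for Timp3, whose groups stood apart on every probe set. With the mean of probe sets these were Mmp14 (−0.0352), Mmp16 (0.33) and Timp2 (0.15), with the most variable Adamts4 (0.0122), Mmp14 (−0.32), Mmp16 (0.56) and Timp2 (0.43), and after another quantile normalization Acan (0.0438), Ncan (−0.0015), Has3 (0.0070), Adamts5 (0.0471), Mmp2 (0.0075) and Timp4 (−0.0055). With an array left out 16 genes crossed 0: Acan (−0.13 to 0.12), Vcan (−0.0442 to 0.10), Has1 (−0.20 to 0.10), Has2 (−0.40 to 0.0008), Has3 (−0.31 to 0.22), Chst3 (−0.32 to 0.16), Chst11 (−0.15 to 0.14), Chsy1 (−0.0654 to 0.16), Chsy3 (−0.11 to 0.44), Adamts1 (−0.0694 to 0.11), Adamts5 (−0.0939 to 0.0788), Adamts15 (−0.0248 to 0.0822), Mmp2 (−0.0982 to 0.0504), Timp1 (−0.14 to 0.29), Timp2 (−0.0387 to 0.0225) and Timp4 (−0.0947 to 0.15). The causes were not tested. The other 17 kept their sign with each array left out. Signal over background could not be read for each probe set from these values, and 18 of the 33 genes lay below the median level.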

Other observations

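Several of these genes lie beside or inside a partner gene, and the pairs were read together after the values of the matrix genes had been seen. In the RefSeq table of GRCm38.p6 each lectican gene has a link protein gene as a neighbour, with 0 protein-coding genes between them: Acan with Hapln3, Bcan with Hapln2, Ncan with Hapln4 and Vcan with Hapln1. Hapln3, which is outside the 34 genes, read 7.63 and 7.67 with fluoxetine, against 7.77 and 7.77 without, a difference of −0.12 with a 95% interval of −0.32 to 0.09, beside −0.01 for Acan. The members of the other pairs differed by 0.04 for Bcan and −0.08 for Hapln2, by 0.04 for Ncan and 0.10 for Hapln4, and by 0.03 for Vcan and 0.05 for Hapln1. None of these 8 genes had an unadjusted p below 0.05 in limma.

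Timp1, Timp4 and Timp3 lie within the genes Syn1, Syn2 and Syn3, which encode synapsins, the phosphoproteins that tether synaptic vesicles. Syn3, the host of Timp3, read 8.82 and 8.81 with fluoxetine, against 8.88 and 8.77 without. Its groups overlapped and its difference was −0.01 with a 95% interval of −0.18 to 0.16, beside 0.15 (interval 0.01 to 0.30) for Timp3. The 2 intervals share values, and the difference between the genes was not tested. Syn1 differed by −0.06 (SE 0.04) beside 0.07 for Timp1, and Syn2 by 0.0011 (SE 0.04) beside 0.03 for Timp4.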
